A study of Mus musculus with 6 samples.

Results

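Proteoglycans are core proteins that carry long sulphated sugar chains, and with hyaluronan, an unsulphated sugar chain that carries no core protein, they fill much of the space between cells. Brain tissue is known for a matrix of hyaluronan, lecticans, link proteins and tenascins, while connective tissue and vessel walls are known for small leucine-rich proteoglycans on collagen fibrils and for perlecan in basement membranes. Matricellular proteins, such as thrombospondins, periostin and SPARC, are secreted proteins that act on cells and matrix assembly more than they build the matrix.

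The genes described here are 47 mouse genes of these families, taken by name. Of them, 38 were row symbols of the deposited expression table, which holds 13069 genes. The other 9, Gpc3, Omd, Acan, Hapln1, Has3, Srgn, Spock1, Spock3 and Thbs4, were not row symbols and were not analysed here. The study compared cultured cells from mouse glioblastoma (GBM), a malignant brain tumour, grown as neurospheres, with 3 libraries of the genotype ATRX knockout (ATRX KO) and 3 of ATRX wild type (ATRX WT). ATRX is a chromatin remodelling protein. Tumours of both genotypes were induced with Sleeping Beauty transposon plasmids, injected into the brain ventricles of newborn C57BL/6 or FVB mice, that carried NRAS and a short hairpin against p53. The ATRX KO cultures had in addition a short hairpin against ATRX per the growth protocol, although the labels also call them a knockout. The strain behind each culture is not given, and each genotype is 1 line, named C54B for ATRX KO and C39E for ATRX WT, so that genotype and line cannot be told apart. Cells were grown in neural stem cell medium to which B-27, N-2 and the growth factors FGF and EGF were added.

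Values are log2 RPKM, the log2 of read density per kilobase of gene, adjusted for library size, and RPKM and read numbers recovered from them. The table held 22177228 to 32477269 reads per ATRX KO library and 34966108 to 38039847 reads per ATRX WT library. Atrx itself measured 14.1, 16.6 and 17.1 RPKM in ATRX KO against 22.3, 22.7 and 21.5 RPKM in ATRX WT (log2 fold change -0.48, SE 0.0680, limma adjusted p = 1.3e-04), so its level was 71.9% of that in ATRX WT. All 7 neural stem cell markers in the table were lower in ATRX KO. Their summed level was 1059 to 1071 RPKM in ATRX KO against 4767 to 4886 RPKM in ATRX WT. Vim was nearly the whole sum in ATRX KO, at 1008 RPKM against 1868 RPKM in ATRX WT. Fabp7 averaged 0.0623 RPKM in ATRX KO and 2757 RPKM in ATRX WT. Sox2 was still read at 19.8 RPKM in ATRX KO, against 80.4 RPKM in ATRX WT. Summed astrocyte markers (4 of 8 in the table) reached 28.9 to 33.4 RPKM in ATRX KO against 361 to 368 RPKM in ATRX WT. Nearly the whole astrocyte sum in ATRX KO was Slc1a3, at 30.8 RPKM against 167 RPKM in ATRX WT. Oligodendrocyte lineage markers (6 of 8) summed to 30.5 to 34.2 RPKM in ATRX KO against 276 to 285 RPKM in ATRX WT. Of the 4 of these that were tested, 3 fell and Pdgfra rose, to 31.5 ± 2.03 RPKM in ATRX KO, which was nearly the whole sum there, against 3.40 RPKM in ATRX WT. Neuron markers (7 of 8) summed to 6.96 to 7.49 RPKM in ATRX KO against 175 to 181 RPKM in ATRX WT. Olig1, Bcas1, Mlc1 and Dcx had 0 reads in ATRX KO. Fibroblast and mesenchymal markers went the other way: the 6 of 8 that were tested all rose, with a summed level of 1118 to 1237 RPKM in ATRX KO against 38.1 to 41.1 RPKM in ATRX WT. Col3a1 and Col1a1, at 725 and 266 RPKM, were most of the sum in ATRX KO and averaged 0.0447 and 0.501 RPKM in ATRX WT. Prrx1 was nearly the whole sum in ATRX WT, at 37.7 RPKM against 107 RPKM in ATRX KO. Of the untested fibroblast and mesenchymal markers, Col1a2 averaged 0.623 RPKM in ATRX KO and 0.0435 RPKM in ATRX WT. Thy1 averaged 0.621 RPKM in ATRX KO and 1.09 RPKM in ATRX WT. The pericyte markers (4 of 6 in the table) summed to 30.7 to 34.1 RPKM in ATRX KO against 120 to 123 RPKM in ATRX WT, but they were split, with Anpep and Notch3 higher and Rgs5 and Mcam lower in ATRX KO, and Mcam alone gave 99.8 RPKM in ATRX WT. The endothelial markers in the table (3 of 7) summed to 14.4 to 16.4 RPKM in ATRX KO against 0.422 to 0.679 RPKM in ATRX WT. Emcn and Cdh5 rose. Kdr was not tested and its groups overlapped, with a mean of 0.242 RPKM in ATRX KO and 0.293 RPKM in ATRX WT. Pecam1, Tek, Cldn5 and Vwf were not row symbols. The microglia and macrophage markers (2 of 8, without Ptprc, Csf1r, Aif1, Cx3cr1, Itgam or C1qa) summed to 30.6 to 35.1 RPKM in ATRX KO against 5.52 to 6.28 RPKM in ATRX WT. Cd68 was most of this sum, at 27.8 RPKM in ATRX KO against 5.78 RPKM in ATRX WT. Tmem119, the other, averaged 4.54 RPKM in ATRX KO and 0.0405 RPKM in ATRX WT. Of the RNA quality and stress genes in the table (5 of 8), Jun, Egr1 and Hspa1b rose and Fos fell, with a summed level of 388 to 396 RPKM in ATRX KO against 206 to 211 RPKM in ATRX WT. The part that these marker differences have in the values below was not tested. In bulk libraries fewer cells of a type and less RNA per cell cannot be told apart.

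All 38 members in the table reached the level set for testing and all 38 passed the limma test in 1 direction or the other, but 89.5% of the 12201 genes tested did so, so that this count does not set the members apart. Of the members 25, or 65.8%, were higher in ATRX KO, against 43.6% of all tested genes, and 13, or 34.2%, were lower, against 45.9%. The groups did not overlap for any of the 38, which held for 90.5% of all tested genes. Sizes differed more than calls. When the same model was tested against a log2 fold change of 1 instead of 0, 30 members, or 78.9%, passed (20 higher, 10 lower), while 32.6% of all tested genes did (15.4% higher, 17.2% lower). The 8 that did not pass it were Prelp, Gpc6, Sdc4, Hapln4, Agrn, Thbs3, Tnc and Sparcl1. The median size of the log2 fold change was 3.06 over the members and 0.68 over all tested genes, and the median of the signed values was 1.16 over the members and -0.02 over all tested genes. A log2 fold change of size 5 or more was seen in 16 members (11 higher, 5 lower), or 42.1%, and in 6.59% of all tested genes. A gene that reaches the level for testing in 1 group only has to differ, and 10 members had a mean log2 RPKM under 0 in ATRX WT and 6 in ATRX KO. For the 22 members with a mean of at least 0 in both groups, the log2 fold changes lay between -3.13 (Gpc2) and 10.55 (Mgp), with a median of 0.96. Of the members with a size of 5 or more, only Mgp and Thbs1 were among these 22. No median was taken over all genes with such means in both groups.

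**Figure D1:**
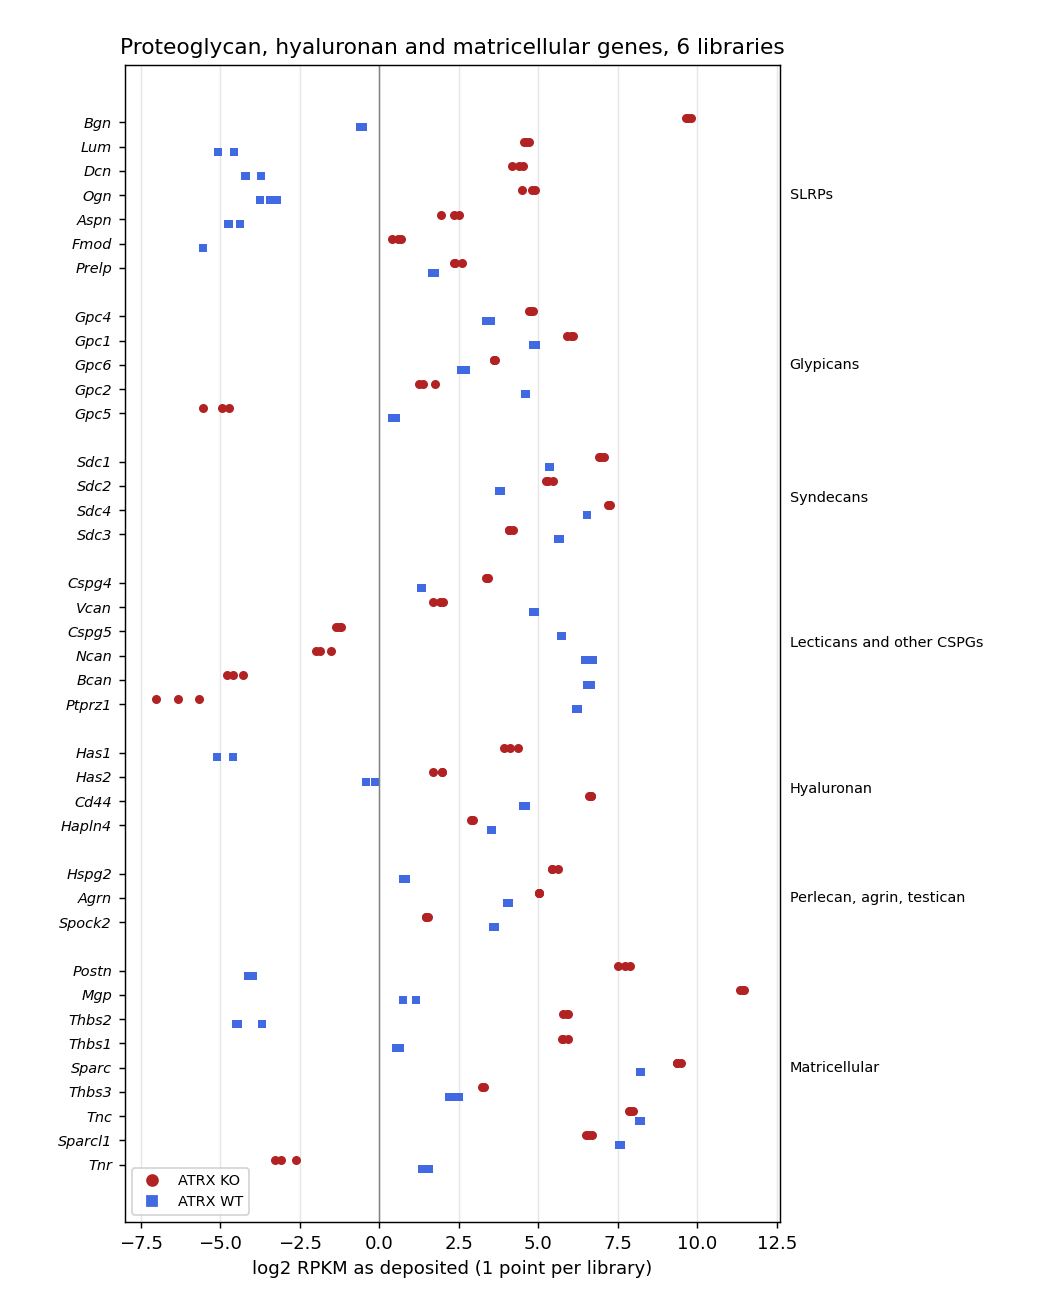
Log2 RPKM as deposited (horizontal axis) of the 38 members, 1 point per library, red circles for the 3 ATRX KO libraries and blue squares for the 3 ATRX WT libraries, ordered by family. In every row the circles and squares are separate, and the group means differ by between 0.29 (Tnc) and 12.57 (Ptprz1) log2 units.

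**Figure D2:**
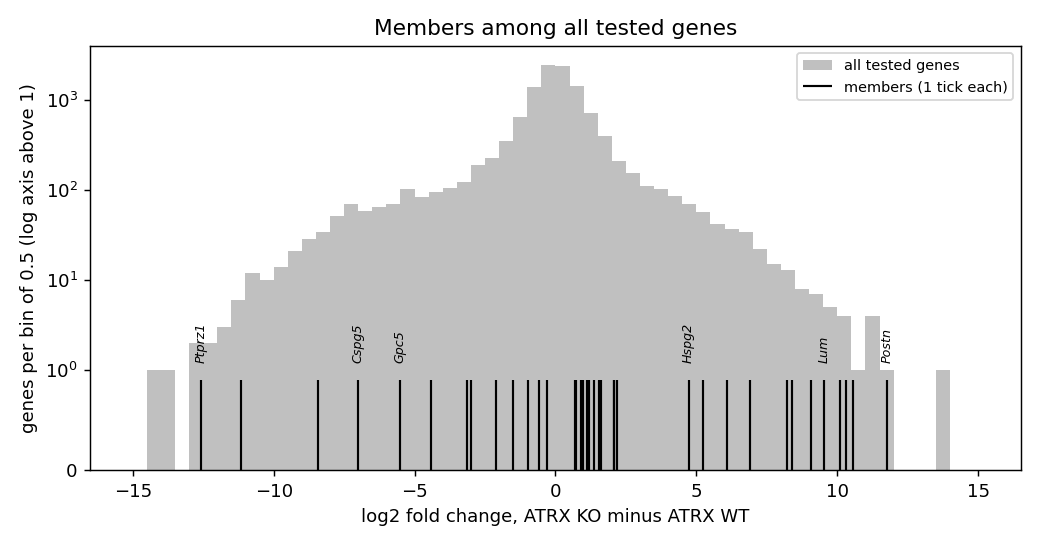
Histogram of the log2 fold change, ATRX KO minus ATRX WT, of all 12201 tested genes in bins of 0.5 (vertical axis linear up to 1 and logarithmic above), with 1 black tick per member, of which a few are named. Of the 38 ticks 16 lie at a size of 5 or more.

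The small leucine-rich proteoglycans were the family with the widest gap. These short core proteins bind collagen fibrils and set their spacing, and several also bind growth factors. All 7 in the table rose, and their summed level was 934 ± 56.9 RPKM in ATRX KO and 4.02 ± 0.159 RPKM in ATRX WT (SD, n = 3 each), a ratio of 232. Bgn (biglycan, chrX:73483602-73495933 in GRCm38, plus strand) carried most of this. It measured 806, 902 and 842 RPKM in the ATRX KO libraries, from 58254, 56386 and 41729 reads, against 0.669, 0.629 and 0.644 RPKM in the ATRX WT libraries, from 60, 61 and 61 reads. The log2 fold change was 10.30 (SE 0.0458, limma adjusted p = 1.0e-12). Bgn thus made up 91.0% ± 0.436 of the family's RPKM in ATRX KO, whereas in ATRX WT it made up 16.1% ± 0.123 and Prelp 81.0% ± 0.484.

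Prelp, a member with a proline- and arginine-rich end that ties basement membranes to connective tissue, was the exception in size. It had 5.19, 6.05 and 5.13 RPKM in ATRX KO and 3.39, 3.12 and 3.26 RPKM in ATRX WT, a log2 fold change of 0.74 (SE 0.0769, limma adjusted p = 1.6e-05). It was the only family member over 1 RPKM in ATRX WT. Dcn (decorin) averaged 20.7 ± 2.35 RPKM in ATRX KO and 0.0323 ± 0.0129 RPKM in ATRX WT, where it rested on 8 reads over 3 libraries. Ogn (osteoglycin) averaged 26.7 ± 3.77 RPKM in ATRX KO and 0.0672 ± 0.0172 RPKM in ATRX WT. Aspn (asporin) was lower in level, at 4.85 ± 0.900 RPKM in ATRX KO and 0.0144 ± 0.00611 RPKM in ATRX WT. These 3 had log2 fold changes of 8.40, 8.20 and 6.90.

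Lum and Fmod were at or next to 0 in ATRX WT. Lum (lumican) had 1479, 1434 and 1044 reads in the ATRX KO libraries against 1, 0 and 0 in the ATRX WT libraries, a ratio of library-scaled reads of 6038 with a 95% counting interval of 1083 to 238557. Fmod (fibromodulin) had 113, 110 and 95 reads in ATRX KO and 0 in every ATRX WT library, and was at least 162-fold higher against a floor of 3 reads over the group. The intervals and floors given here cover counting error only. Both genes were thus clearly read in ATRX KO, Lum at 24.7 ± 1.48 RPKM and Fmod at 1.46 ± 0.148 RPKM.

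The sequences around the transcription start are shown for 2 members that rose and 2 that fell strongly, as examples of each direction. They had the largest fitted log2 fold changes among the members with 1 start site in the RefSeq table (GRCm38.p6), an order that depends on the prior added to the reads, and Postn and Mgp, which are not shown, had larger fitted rises. They run 5′ to 3′ on the gene's strand over 300 bases, 250 before the start and 50 after it, and capitals mark CG dinucleotides, the sites of DNA methylation. Bgn (chrX:73483351-73483650, plus strand) and Thbs2 (chr17:14694213-14694512, minus strand) rose, and Ptprz1 (chr6:22875252-22875551, plus strand) and Bcan (chr3:88000307-88000606, minus strand) fell.
Bgn: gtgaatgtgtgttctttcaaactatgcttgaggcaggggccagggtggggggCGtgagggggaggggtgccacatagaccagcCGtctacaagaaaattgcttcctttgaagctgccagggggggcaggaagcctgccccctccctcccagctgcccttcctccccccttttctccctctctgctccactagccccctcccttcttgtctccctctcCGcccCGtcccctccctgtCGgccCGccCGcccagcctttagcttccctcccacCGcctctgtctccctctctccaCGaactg
Thbs2: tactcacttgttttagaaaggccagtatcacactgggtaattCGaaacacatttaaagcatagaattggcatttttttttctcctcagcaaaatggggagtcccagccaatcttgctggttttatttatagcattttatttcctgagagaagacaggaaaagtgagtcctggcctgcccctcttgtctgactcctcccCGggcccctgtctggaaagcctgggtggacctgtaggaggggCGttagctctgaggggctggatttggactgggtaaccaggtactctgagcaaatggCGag
Ptprz1: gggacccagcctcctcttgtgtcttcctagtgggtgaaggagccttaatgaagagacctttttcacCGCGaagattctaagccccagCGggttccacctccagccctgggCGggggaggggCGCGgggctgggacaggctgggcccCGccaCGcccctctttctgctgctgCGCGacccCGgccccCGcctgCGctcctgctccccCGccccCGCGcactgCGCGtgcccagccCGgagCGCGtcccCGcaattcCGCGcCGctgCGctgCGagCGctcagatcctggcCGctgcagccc
Bcan: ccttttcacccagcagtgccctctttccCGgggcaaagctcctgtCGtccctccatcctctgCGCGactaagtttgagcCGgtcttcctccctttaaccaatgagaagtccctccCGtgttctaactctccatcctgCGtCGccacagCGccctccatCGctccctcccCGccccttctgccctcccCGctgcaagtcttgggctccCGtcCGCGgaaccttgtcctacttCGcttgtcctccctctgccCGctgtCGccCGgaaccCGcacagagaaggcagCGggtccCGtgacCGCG
These windows hold 9 CG dinucleotides for Bgn, 4 for Thbs2, 29 for Ptprz1 and 24 for Bcan.

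Of the 38 members 27 had an entry in this table. The 7 with a rise of log2 5 or more held 3 to 9 CG dinucleotides per 300 bases, with a median of 4. The other 10 that rose held 4 to 42 with a median of 15.5, and the 10 that fell held 3 to 44 with a median of 16.5. Over all 32851 start sites in the table the median was 7, with quartiles of 3 and 20, so the median of the largest rises lay between these quartiles and under the medians of the other members, whose ranges overlapped it. Where a gene had several start sites, the highest number was used. The letters TATAAA, searched on the gene's strand only, stood in the windows of Aspn, Ogn and Postn, 3 of the 7. They stood in none of the other 10 that rose and in 1 of the 10 that fell (Tnc), against 8.32% of all start sites. Genes with several start sites, among them Postn and Tnc with 2 each, were counted if any site held the letters. The 8.32% is instead a share of single start sites. The cut at log2 5 was chosen after the values were seen, and these counts are a description with no test.

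The lecticans and other chondroitin sulphate proteoglycans showed the opposite pattern. Lecticans bind hyaluronan at one end and tenascins at the other and form much of the matrix of the brain. Of the 6 in the table, 5 fell and 1 rose, and the summed level was 14.8 ± 0.332 RPKM in ATRX KO and 355 ± 10.7 RPKM in ATRX WT (SD, n = 3 each), 23.9-fold lower in ATRX KO. Ncan (neurocan), the most abundant over all 6 libraries, had 0.341, 0.267 and 0.242 RPKM in the ATRX KO libraries against 89.3, 103 and 105 RPKM in the ATRX WT libraries. Its log2 fold change was -8.42 (SE 0.121, limma adjusted p = 4.8e-11). Bcan (brevican) was read 4, 2 and 2 times in ATRX KO against 13726, 14255 and 15326 times in ATRX WT, a log2 fold change of -11.15 (SE 0.122, limma adjusted p = 1.3e-11). Both are mainly made in the brain, and neither passed 1 RPKM in any ATRX KO library.

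Ptprz1, a receptor tyrosine phosphatase whose outer part carries chondroitin sulphate and binds tenascins and pleiotrophin, had the largest fitted change of the members in the deposited values. The ATRX KO libraries held 0, 1 and 2 reads of it and the ATRX WT libraries 22227, 25075 and 23672 reads, or 73.4, 76.5 and 74.0 RPKM. The level in ATRX KO was 15504-fold lower, with a 95% counting interval of 5305 to 75181. Cspg5 (neuroglycan C) averaged 0.396 ± 0.0195 RPKM in ATRX KO and 53.3 ± 0.581 RPKM in ATRX WT, a log2 fold change of -7.02. Vcan (versican), the lectican found also outside the brain, kept more of its level: it averaged 3.66 ± 0.376 RPKM in ATRX KO and 29.0 ± 0.861 RPKM in ATRX WT, a log2 fold change of -2.99.

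Cspg4 (NG2), a transmembrane chondroitin sulphate proteoglycan of oligodendrocyte precursors and pericytes, was the member of this family that rose. It had 10.6, 10.5 and 10.2 RPKM in the ATRX KO libraries against 2.50, 2.52 and 2.51 RPKM in the ATRX WT libraries (log2 fold change 2.06, SE 0.0475, limma adjusted p = 6.2e-10). Its share of the family's RPKM was 70.6% ± 1.85 in ATRX KO and 0.708% ± 0.0198 in ATRX WT. Vcan took most of the rest in ATRX KO, with 24.6% ± 2.15 against 8.17% ± 0.339 in ATRX WT. In ATRX WT the family was instead spread over Ncan (27.8%), Bcan (27.2%), Ptprz1 (21.0%) and Cspg5 (15.0%), which in ATRX KO held 1.91%, 0.181%, 0.0375% and 2.67%. Shares of this kind do not depend on how libraries are scaled.

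**Figure D3:**
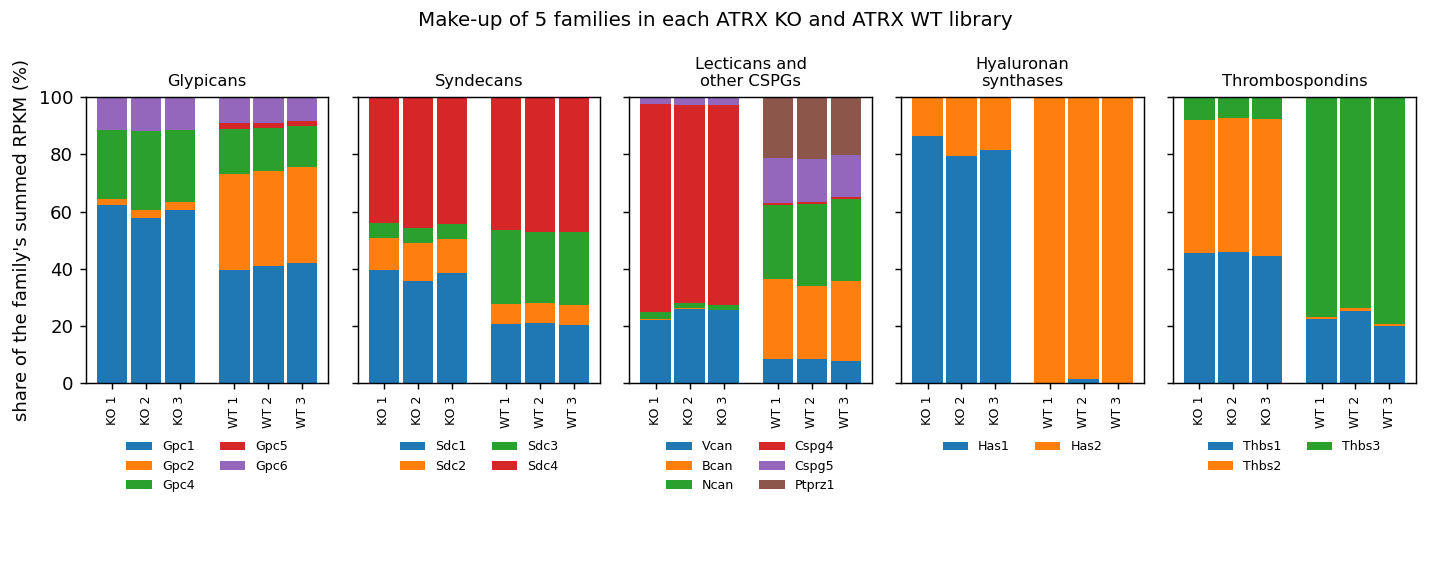
Share of the family's summed RPKM (percent, vertical axis) held by each gene, 1 stacked bar per library with the 3 ATRX KO libraries left of the 3 ATRX WT libraries, for glypicans, syndecans, lecticans and other chondroitin sulphate proteoglycans (CSPGs), hyaluronan synthases and thrombospondins. The bars of a group look alike, while the leading gene differs between the groups in the CSPGs (Cspg4 at 70.6% in ATRX KO and 0.708% in ATRX WT), in the synthases and in the thrombospondins.

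Hyaluronan is made at the plasma membrane by hyaluronan synthases, and Has1 and Has2 were in the table. Has1 had 1305, 837 and 744 reads in the ATRX KO libraries, or 20.6, 15.3 and 17.1 RPKM, against 0, 1 and 0 reads in the ATRX WT libraries, a ratio of 4404 (95% counting interval 790 to 174005). Has2 averaged 3.67 ± 0.410 RPKM in ATRX KO and 0.787 ± 0.0877 RPKM in ATRX WT, a log2 fold change of 2.20. Both synthases rose, and the leading one differed, since Has1 held 82.5% ± 3.62 of their summed level in ATRX KO and 0.436% ± 0.756 in ATRX WT. Has1 in ATRX KO replicate 1 lay above the other ATRX KO libraries.

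Cd44, the main cell surface receptor for hyaluronan, was the most abundant gene of this family. It measured 97.3, 100 and 101 RPKM in the ATRX KO libraries against 23.4, 24.6 and 23.2 RPKM in the ATRX WT libraries, with a log2 fold change of 2.07 (SE 0.0314, limma adjusted p = 6.1e-11). Hapln4, a brain link protein that fastens lecticans to hyaluronan, fell to 7.61, 7.64 and 7.43 RPKM in ATRX KO, against 11.4, 11.3 and 11.7 RPKM in ATRX WT (log2 fold change -0.60, SE 0.0388, limma adjusted p = 5.2e-07). The groups did not overlap for either gene, and the fall of Hapln4 was small beside that of the lecticans it binds.

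Heparan sulphate proteoglycans of the cell surface, which hold growth factors such as FGF next to their receptors, differed by a smaller factor in sum than the families above. Syndecans span the membrane, and their summed level was 333 ± 4.49 RPKM in ATRX KO and 198 ± 1.48 RPKM in ATRX WT. Sdc4, a partner of integrins in adhesion and the most abundant syndecan, had 148, 153 and 146 RPKM in ATRX KO against 92.1, 93.5 and 92.0 RPKM in ATRX WT (log2 fold change 0.69, SE 0.0272, limma adjusted p = 1.9e-08). Its share of syndecan RPKM was 44.6% ± 0.820 in ATRX KO and 46.8% ± 0.358 in ATRX WT. Sdc1, the syndecan typical of epithelia and plasma cells, had 133, 120 and 126 RPKM in ATRX KO against 41.0, 41.6 and 40.2 RPKM in ATRX WT (log2 fold change 1.63, SE 0.0396, limma adjusted p = 8.5e-10). Sdc3, the syndecan best known from neurons, fell to 17.0, 18.6 and 17.0 RPKM in ATRX KO, against 51.3, 49.3 and 50.2 RPKM in ATRX WT (log2 fold change -1.52, SE 0.0407, limma adjusted p = 1.5e-09). Sdc1 was thus 38.0% of the syndecan level in ATRX KO and 20.7% in ATRX WT, and Sdc3 5.26% in ATRX KO and 25.4% in ATRX WT. Sdc2, found in mesenchymal cells, averaged 40.6 ± 3.18 RPKM in ATRX KO and 14.0 ± 0.311 RPKM in ATRX WT.

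Glypicans hang on the membrane by a lipid anchor. Their summed level was 107 ± 2.98 RPKM in ATRX KO and 72.2 ± 0.323 RPKM in ATRX WT, with 3 of the 5 in the table higher and 2 lower in ATRX KO. Gpc1, the most abundant, had 67.5, 59.9 and 65.6 RPKM in ATRX KO against 28.8, 29.4 and 30.4 RPKM in ATRX WT (log2 fold change 1.12, SE 0.0461, limma adjusted p = 2.4e-08). Gpc4, which is made by neural progenitors and astrocytes, had 26.2, 28.7 and 27.4 RPKM in ATRX KO against 11.3, 10.8 and 10.3 RPKM in ATRX WT (log2 fold change 1.35, SE 0.0478, limma adjusted p = 9.0e-09). Gpc6 averaged 12.3 ± 0.117 RPKM in ATRX KO and 6.38 ± 0.369 RPKM in ATRX WT. These 3 rose by close to the same factor, between 1.92 and 2.54 in RPKM.

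The 2 glypicans that fell did so by more. Gpc5 was read 1, 0 and 1 times in ATRX KO against 155, 157 and 150 times in ATRX WT, 151-fold lower in ATRX KO with a 95% counting interval of 41.7 to 1254. Gpc2, a glypican of the developing nervous system, averaged 2.77 ± 0.525 RPKM in ATRX KO and 24.2 ± 0.249 RPKM in ATRX WT, a log2 fold change of -3.13, and its share of glypican RPKM was 2.59% in ATRX KO and 33.5% in ATRX WT. The levels of Gpc2 and Gpc1 are uncertain, since 55.6% of the annotated exonic bases of Gpc2 are shared with Gm43720 on the same strand and 18.9% of those of Gpc1 with Ankmy1 on the opposite strand. Neither of these other genes was a row symbol, and the strand setting used in counting is not given in the sources used here. The shares are of the exons in the GENCODE M21 annotation. These exons sum to more than the lengths recovered with the deposited values, 2513 nt for Gpc2 and 3552 nt for Gpc1. The shares thus need not hold for the gene models used in counting.

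Perlecan and agrin are large heparan sulphate proteoglycans of basement membranes. Hspg2 (perlecan) had 49.6, 42.7 and 43.6 RPKM in the ATRX KO libraries against 1.79, 1.69 and 1.67 RPKM in the ATRX WT libraries, a log2 fold change of 4.72 (SE 0.0635, limma adjusted p = 3.3e-11). Agrn (agrin), known for gathering receptors at the neuromuscular synapse, had 32.6, 32.2 and 32.3 RPKM in ATRX KO against 16.4, 16.3 and 16.9 RPKM in ATRX WT, a log2 fold change of 0.97 (SE 0.0289, limma adjusted p = 3.0e-09). Spock2 (testican-2), a brain proteoglycan of the SPARC family, fell to 2.75, 2.78 and 2.86 RPKM in ATRX KO, against 12.4, 11.8 and 12.5 RPKM in ATRX WT (log2 fold change -2.12, SE 0.0482, limma adjusted p = 5.6e-10). Of the RPKM of these 3 genes Hspg2 held 56.2% ± 1.87 in ATRX KO and 5.64% ± 0.232 in ATRX WT, and Spock2 3.48% ± 0.209 in ATRX KO and 40.1% ± 0.416 in ATRX WT.

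The matricellular genes included the highest level among the members. Mgp (matrix Gla protein), a small secreted inhibitor of calcification in cartilage and vessel walls, measured 2614, 2848 and 2800 RPKM in the ATRX KO libraries, from 47366, 44661 and 34797 reads, against 1.56, 1.56 and 2.15 RPKM in the ATRX WT libraries, from 35, 38 and 51 reads. Its log2 fold change was 10.55 (SE 0.108, limma adjusted p = 9.0e-12), and it made up 67.1% ± 0.741 of the matricellular level in ATRX KO and 0.221% ± 0.0429 in ATRX WT. Postn (periostin), a ligand of integrins in fibrous tissue, had 182, 236 and 213 RPKM in ATRX KO against 0.0404, 0.0448 and 0.0383 RPKM in ATRX WT, the largest rise among the members as fitted with the deposited prior (log2 fold change 11.77, SE 0.0980, limma adjusted p = 4.0e-12). On the log2(RPKM + 1) scale its log2 fold change of 7.66 was below that of Bgn, 9.01. It was also below that of Mgp, which was at least 9.97 under every alternative. Lum, whose ratio rests on 1 read in ATRX WT, cannot be ranked against Postn. In ATRX WT Postn rested on 5, 6 and 5 reads. Sparc, a collagen-binding protein that was also abundant in ATRX WT, averaged 681 ± 36.6 RPKM in ATRX KO and 298 ± 4.06 RPKM in ATRX WT, a log2 fold change of 1.19.

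Thrombospondins are secreted proteins that bind cell receptors, and Thbs1 and Thbs2 are known inhibitors of vessel growth. Thbs2 had 55.2, 61.3 and 59.2 RPKM in ATRX KO against 0.0360, 0.0665 and 0.0341 RPKM in ATRX WT, with a log2 fold change of 10.08 (SE 0.193, limma adjusted p = 2.1e-10). Thbs1 averaged 56.6 ± 3.54 RPKM in ATRX KO and 1.49 ± 0.0750 RPKM in ATRX WT, a log2 fold change of 5.24. Thbs3 averaged 9.56 ± 0.206 RPKM in ATRX KO and 5.09 ± 0.521 RPKM in ATRX WT, a log2 fold change of 0.91. In ATRX KO Thbs1 (45.4%) and Thbs2 (47.0%) held nearly equal shares of thrombospondin RPKM, whereas in ATRX WT Thbs3 held 76.7% ± 2.88.

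The other 3 matricellular genes fell. Tnr (tenascin-R), a partner of lecticans made by oligodendrocytes, had 0.153, 0.0920 and 0.107 RPKM in ATRX KO against 2.57, 2.98 and 2.54 RPKM in ATRX WT (log2 fold change -4.42, SE 0.179, limma adjusted p = 2.2e-08). Sparcl1 (hevin), which astrocytes secrete at synapses, averaged 96.8 ± 6.39 RPKM in ATRX KO and 191 ± 5.01 RPKM in ATRX WT, a log2 fold change of -0.98. Tnc (tenascin-C), abundant in developing brain and in gliomas, had 230, 251 and 239 RPKM in ATRX KO against 287, 293 and 299 RPKM in ATRX WT. Its log2 fold change of -0.29 was the smallest among the members as fitted (SE 0.0365, limma adjusted p = 5.9e-05). Tnc and Sparcl1 thus stayed among the abundant members in both groups.

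Several members lie next to a relative in the genome, and the pairs differed in how alike their changes were (positions from GENCODE M21, GRCm38). Dcn and Lum are 47.0 kb apart on chromosome 10 and rose by log2 8.40 and 9.53. Ogn and Aspn are 40.5 kb apart on chromosome 13, with Omd between them, and rose by log2 8.20 and 6.90. Ecm2, 11.7 kb from Aspn, was not tested and had a mean log2 RPKM of -1.32 in ATRX KO and -0.80 in ATRX WT. Fmod and Prelp on chromosome 1, 116 kb apart, rose by log2 6.10 and 0.74. Optc, 2.30 kb from Prelp, was not tested either, with a mean log2 RPKM of -2.16 in ATRX KO and -0.83 in ATRX WT. Ncan and Hapln4, 2.22 kb apart on chromosome 8, fell by log2 8.42 and 0.60, so that Ncan kept 0.286% and Hapln4 65.7% of its ATRX WT level. Gpc5 and Gpc6, 400 kb apart on chromosome 14, went in opposite directions, at log2 -5.53 and 0.95.

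The enzymes that build, modify and cleave the chains and cores, and the proteins that bind them, were taken as 7 further lists. Of 112 tested genes on them, 64 rose and 43 fell, beside the 43.6% and 45.9% of all tested genes given above. The enzymes of the linker, of chain synthesis and of sugar precursors were balanced, with 12 higher and 14 lower of 26 tested and a median log2 fold change of -0.11. Among them Xylt1, which adds the first sugar of the linker to the core protein, averaged 4.13 ± 0.206 RPKM in ATRX KO and 32.5 ± 0.919 RPKM in ATRX WT. Slc35d1, a transporter of sugar nucleotides, averaged 8.98 ± 0.438 RPKM in ATRX KO and 2.11 ± 0.235 RPKM in ATRX WT. Among 11 tested enzymes that modify heparan sulphate, 6 were higher and 3 lower (median 0.43). Ndst3, an N-deacetylase and N-sulphotransferase, averaged 6.63 ± 0.303 RPKM in ATRX KO and 0.0932 ± 0.0172 RPKM in ATRX WT. Hs3st2, a 3-O-sulphotransferase of the brain, had 0 reads in ATRX KO and 5.96 ± 0.128 RPKM in ATRX WT, at least 348-fold lower in ATRX KO.

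The enzymes that modify chondroitin, dermatan and keratan sulphate were split, 11 higher and 8 lower of 20 tested (median 0.28), and the split followed no single direction among the sulphotransferases. Dse and Chst14, which act together in the making of dermatan sulphate, both rose. Dse averaged 14.1 ± 1.19 RPKM in ATRX KO and 2.26 ± 0.121 RPKM in ATRX WT, and Chst14 15.4 ± 0.311 RPKM in ATRX KO and 3.27 ± 0.0405 RPKM in ATRX WT. Chst15, which makes disulphated chondroitin sulphate E, also rose, to 5.18 ± 0.272 RPKM in ATRX KO, against 0.239 ± 0.0205 RPKM in ATRX WT. Chst7, Chst11 and Chst12, which sulphate chondroitin at single positions, fell. Chst11 averaged 17.7 ± 0.551 RPKM in ATRX KO and 62.0 ± 1.67 RPKM in ATRX WT, and Chst7 1.35 ± 0.142 RPKM in ATRX KO and 44.1 ± 1.17 RPKM in ATRX WT.

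Proteins that bind, take up or break down hyaluronan had 6 higher and 4 lower of 10 tested, with a median of 0.36. Cemip, which is needed for hyaluronan breakdown, averaged 26.4 ± 1.06 RPKM in ATRX KO, 6.79-fold its level in ATRX WT. Layn (layilin), a hyaluronan receptor, averaged 46.6 ± 1.68 RPKM in ATRX KO and 4.84 ± 0.227 RPKM in ATRX WT. Itih2, a heavy chain that can be joined to hyaluronan, averaged 11.2 ± 1.02 RPKM in ATRX KO and 0.0190 ± 0.00409 RPKM in ATRX WT, while Tnfaip6, the enzyme that joins such chains, fell to 2.94 ± 0.251 RPKM in ATRX KO, against 54.9 ± 0.844 RPKM in ATRX WT.

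Of 13 tested proteases that cleave proteoglycans 9 rose and 4 fell (median 1.82). Mmp3 averaged 148 ± 2.08 RPKM in ATRX KO and 0.0343 ± 0.0478 RPKM in ATRX WT, where it was read 6, 0 and 1 times. Mmp2 averaged 516 ± 22.5 RPKM in ATRX KO and 1.81 ± 0.219 RPKM in ATRX WT. As fitted with the deposited prior, their log2 fold changes were 11.30 and 8.15. Mmp13 averaged 15.5 ± 0.876 RPKM in ATRX KO and 0.136 ± 0.0448 RPKM in ATRX WT. Mmp15, a membrane-bound metalloproteinase, fell to 4.13 ± 0.0369 RPKM in ATRX KO, against 149 ± 1.10 RPKM in ATRX WT. Adamts9, which cleaves versican, averaged 0.469 ± 0.00965 RPKM in ATRX KO and 6.83 ± 0.272 RPKM in ATRX WT. Among further leucine-rich and matricellular genes 11 of 14 tested were higher and 3 lower, and their median of 3.69 was the highest of the 7 lists. Tgfbi, a relative of periostin, averaged 20.1 ± 1.08 RPKM in ATRX KO and 0.377 ± 0.0817 RPKM in ATRX WT. The 3 that fell were Omg, Smoc1 and Ptn. Omg had 0 reads in ATRX KO and 7.40 ± 0.157 RPKM in ATRX WT, at least 424-fold lower in ATRX KO. Smoc1 was read 1, 2 and 0 times in ATRX KO against 632, 725 and 642 times in ATRX WT. It was 437-fold lower in ATRX KO, with a counting interval of 149 to 2119. Ptn (pleiotrophin), a ligand of Ptprz1 and of syndecans, fell by less. Ptn averaged 165 ± 8.37 RPKM in ATRX KO and 222 ± 5.51 RPKM in ATRX WT, a smaller difference than that of Ptprz1 itself.

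The receptors of these proteins were near balance, with 9 higher and 7 lower of 18 tested and a median of 0.14. Itgb3 and Itga5, integrin subunits that take part in binding fibronectin and other matrix proteins, both rose. Itga5 averaged 93.7 ± 2.03 RPKM in ATRX KO and 5.39 ± 0.169 RPKM in ATRX WT, and Itgb3 6.82 ± 0.0663 RPKM in ATRX KO and 0.342 ± 0.0661 RPKM in ATRX WT. Itga9, the subunit of a tenascin receptor, fell to 0.357 ± 0.0444 RPKM in ATRX KO, against 9.64 ± 0.206 RPKM in ATRX WT, and Itgb8 to 0.971 ± 0.0520 RPKM in ATRX KO, against 8.41 ± 0.397 RPKM in ATRX WT.

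**Figure D4:**
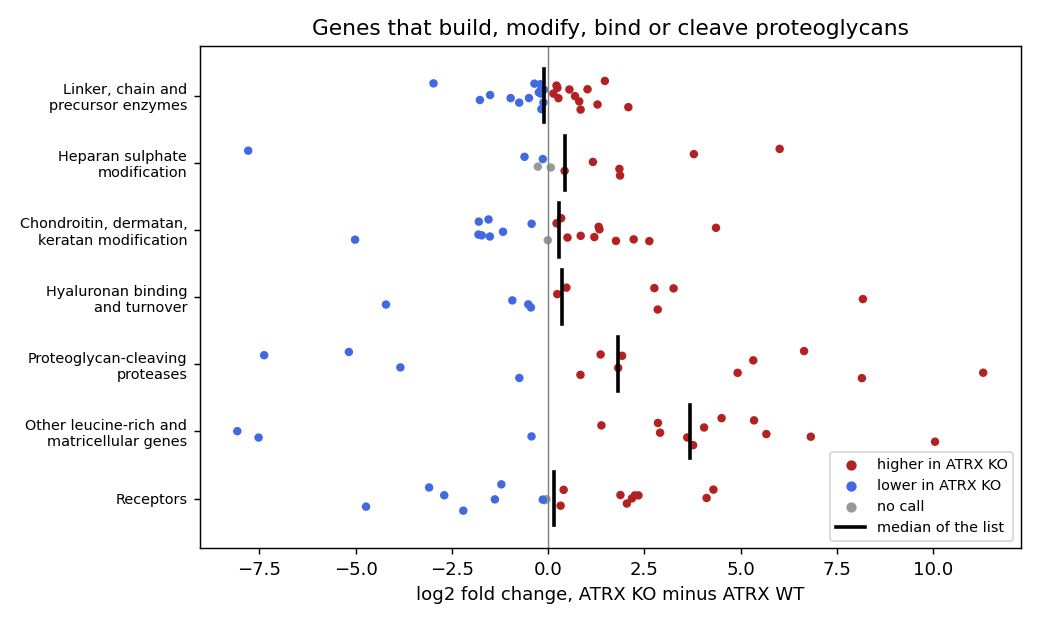
Log2 fold change, ATRX KO minus ATRX WT (horizontal axis), of the 112 tested genes on the 7 lists, 1 point per gene, red for higher, blue for lower and grey for no call, with a black bar at each list's median. The medians lie between -0.11 for the linker and chain enzymes and 3.69 for the further leucine-rich and matricellular genes, and each list holds genes on both sides of 0.

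Replicates lay close together. The SD of log2 RPKM within a group had a median over the 38 members of 0.0898 in ATRX KO and 0.0490 in ATRX WT, and the highest were 0.680 for Ptprz1 in ATRX KO and 0.440 for Thbs2 in ATRX WT, both in the group with few reads. In ATRX KO, replicate 1, the most deeply read of its group, lay farthest from the mean of the other two in 21 of 38 members, replicate 2 in 13 and replicate 3 in 4. In ATRX WT the numbers were 10, 15 and 13. Leaving out any 1 library changed no member's call. Because the 3 libraries of a genotype share 1 line, the p-values given here reflect only how far these libraries differ among themselves, a spread that may be technical.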

How the data were processed

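RNA was measured in 6 libraries of 2 lines (4 ug, stranded mRNA kit, paired-end 42-nt reads) per the labels' protocols. The authors deposited log2 RPKM values of 13069 genes. Per the submitters' processing notes, reads were handled with STAR 2.5.3a, HTSeq 0.11.2, FastQC, Trim Galore and edgeR 3.20.9. The builds mm9 and mm10 are named without a role, and the filter that removed low genes and the strand setting of counting are not given in the sources used here, so a low member may have lost its row.

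Reads were recovered from the whole-read steps of the deposited log2 values for 100% of genes (tolerance 0.0001 reads), with a prior that averaged 2 reads. RPKM was computed from these reads without the prior, with the authors' library sizes, which were 0.932 to 0.935 times the table total in ATRX KO and 1.07 times it in ATRX WT. Scaling by the reads in the table would lower the median log2 fold change of all genes by 0.20. Fitted fold changes are on the scale of log2 RPKM with the prior, which understates the change of genes with few reads.

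A gene was tested when 3 or more of the 6 libraries had a log2 RPKM of 0 or higher, and 868 genes were left out. limma 3.58.1 under R 4.3.3 was fitted, with moderated variances that follow a trend over expression (4 residual and 4.2 prior degrees of freedom), to the deposited values over 12201 genes, two-sided, with adjusted p-values (Benjamini-Hochberg, over the whole set of genes tested) and a threshold of 0.05. "Rose" and "fell" mean past it. The second test was limma's test against a log2 fold change of 1 with the same adjustment. The functions were tested on simulated data. A ratio against a group with 0 reads is a bound against 3 reads over the group, and against 1 to 3 reads it is a ratio of the groups' pooled reads, each divided by its pooled library size, with an exact interval.

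In each family the largest rise, the largest fall and the most abundant member are given in every library, and of each further list up to 3 genes each way were eligible to be named. The members, the lists and this rule were chosen with earlier results of these data known. Alternatives were no filter, a stricter filter, other scalings and priors, no trend, a replicate block and each library left out.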

Additional observations from a re-analysis of the deposited data

How the results depend on the processing

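Every member kept its direction under each alternative in which it was tested, and its call too, apart from the test against log2 1, which 8 members did not pass. The counts stayed at 25 higher and 13 lower, except that a filter at log2 RPKM 1 left 36 members in the test, 24 higher and 12 lower, and the test against log2 1 gave 20 and 10. The test against log2 1 was run with the authors' scaling only, and its counts may differ under another. Scaled by the reads in the table, Gpc1 and Sparc, which passed it, had log2 fold changes of 0.93 and 1.00. Sparcl1, which did not pass it, had -1.18. Apart from that test, the greatest adjusted p of a member under any alternative was 6.8e-04 (limma). Over all genes the calls were 5321 higher and 5604 lower, and 4388 and 6689 when scaled by the reads in the table, with no sign changed among the members. Without a filter more genes of the lists were tested. Of the enzymes that modify heparan sulphate, 7 were higher and 6 lower of 15 tested, against 6 and 3 of 11. Of the further leucine-rich and matricellular genes, 14 were higher and 6 lower of 21 tested, against 11 and 3 of 14. The replicate block gave 25 and 13 members, and 5287 and 5564 over all genes. Deviations of libraries with the same number correlated at -0.05, 0.05 and -0.04, and those with different numbers at -0.09 to 0.12. No deviation shared by number was thus seen, which cannot tell whether such libraries were handled together. Depth limits the fold of genes near 0 in 1 group. Between priors of 5 and 0.5 reads the fitted log2 fold change ran over 4.81 to 8.08 for Fmod, -11.59 to -13.70 for Ptprz1, 7.83 to 10.76 for Has1 and 8.31 to 11.22 for Lum. On the log2(RPKM + 1) scale it was 1.30, -6.23, 4.21 and 4.68 in the same order of genes.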
